A study of Mus musculus with 12 samples.

Results

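Microexons are exons so short that the splicing machinery can barely fit on them, and they were followed here in mouse liver with and without lipin 1. They were taken as skipped exon (SE) events with an exon of 27 nt or less that stood with the same coordinates in the full tables of Lpin1-/- against Lpin1+/+ liver for both fasted and refed mice, and that had at least 10 inclusion plus skipping counts in each of the 12 libraries. This gave 465 events of 28447, which come from 434 exons in 391 genes. Before the count minimum, 719 of 34416 joined events had an exon this short. The rule used length and coverage, and no difference between groups, but it was set with earlier results of these data known.

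The 12 libraries were from bulk liver, 1 per mouse, and covered both genotypes (Lpin1+/+ and Lpin1-/-) in both feeding states, with 3 mice per group. All mice were males on BALB/cByJ, aged 2 to 8 months. Lpin1-/- mice are homozygous for the fatty liver dystrophy (fld) mutation, a constitutive loss of lipin 1 in every cell type, and Lpin1+/+ mice were their littermates. Fasted mice went 16 hours without food, and refed mice had the same fast followed by 5 hours of feeding, so the feeding states also differ in the hour of sampling. The comparisons ask whether loss of lipin 1 alters exon choice in fasted liver and how much of that is left after a meal.

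Microexons are best known from neurons and muscle, where the same pre-mRNA is spliced to include a tiny in-frame exon that inserts a few amino acids into a protein surface. Because such an exon offers little room for enhancer sequences, its inclusion leans on proteins bound in the flanking introns. SRRM4 promotes neuronal microexons, PTBP1 represses many of them, and RBFOX, MBNL, QK, and ESRP proteins act on others depending on where they bind. Liver expresses little SRRM4, so most neuronal microexons are skipped there. In these data a microexon was read through junctions only, since the 69 bp reads are longer than any of these exons.

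Sequences are shown for 9 annotated coding microexons, since the length and frame of the insert can be read from them and 19 of the 54 events altered in fasted liver were of this kind. Below, the microexon is in capitals and 15 bases of the exon on either side are in lower case as joined in the GENCODE M21 transcript. The first 6 were included more in fasted Lpin1-/- liver, Mia2 was included less, and the others differed between genotypes in refed liver without passing the test.
Cpeb2, chr5:43268869-43268892, plus strand of GRCm38, 24 nt: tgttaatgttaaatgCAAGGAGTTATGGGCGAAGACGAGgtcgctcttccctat
Suco, chr1:161845560-161845580, minus strand, 21 nt: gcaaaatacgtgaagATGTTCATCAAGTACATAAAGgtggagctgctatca
Plekha5, chr6:140537006-140537023, plus strand, 18 nt: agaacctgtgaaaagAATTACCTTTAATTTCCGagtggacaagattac
Myo6, chr9:80303273-80303299, plus strand, 27 nt: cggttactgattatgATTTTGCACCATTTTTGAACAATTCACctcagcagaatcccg
Mef2a, chr7:67244521-67244544, minus strand, 24 nt: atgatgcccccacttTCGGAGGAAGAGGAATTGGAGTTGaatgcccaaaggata
Clip1, chr5:123581592-123581597, minus strand, 6 nt: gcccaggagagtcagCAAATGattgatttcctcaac
Mia2, chr12:59146336-59146362, plus strand, 27 nt: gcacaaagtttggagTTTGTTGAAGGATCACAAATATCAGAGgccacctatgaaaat
Gfra1, chr19:58392573-58392587, minus strand, 15 nt: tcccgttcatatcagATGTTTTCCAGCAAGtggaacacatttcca
Map2k5, chr9:63217339-63217365, minus strand, 27 nt: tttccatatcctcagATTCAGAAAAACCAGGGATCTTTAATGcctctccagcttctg

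In the gene table, Lpin1 was at 0.726 to 22 RPKM in the 6 Lpin1+/+ libraries and at 0.00573 to 0.0597 in the 6 Lpin1-/- libraries, below every Lpin1+/+ library. Counts over the microexon events summed to 436547 to 706536 per library, with a median of 126 to 222 per event. The rarer form had a mean under 5 counts over the libraries in 296 of the 465 events, which limits precision. The markers fixed for hepatocytes summed to 31500 to 74300 RPKM and the 6 neuron markers to 0.923 to 4.97 RPKM, with the lowest neuron sums in refed Lpin1-/- liver (0.923 to 1.18). Stellate cell markers summed to 189 to 273 RPKM in fasted Lpin1-/- and 64.7 to 151 in fasted Lpin1+/+ liver. Most of this sum was Dcn (means of 228 and 116 RPKM), while Lrat (1.28 and 1.83) and Reln (2.12 and 2.31) had lower means in fasted Lpin1-/- liver. Cholangiocyte markers summed to 24.9 to 451 RPKM in fasted Lpin1-/- and 32.1 to 45.8 in fasted Lpin1+/+ liver, so the groups overlapped, mostly as Spp1 (means of 168 and 35 RPKM). The Spp1 microexon event had skipping counts of 3446, 488, and 222 in fasted Lpin1-/- and 285, 253, and 396 in fasted Lpin1+/+ liver. The part of these cells in the results was not tested. Over all libraries the sums were 30.2 to 244 for Kupffer cells, 4.71 to 22.9 for endothelial cells, and 2.28 to 80.1 for lymphocytes and neutrophils. Bulk liver cannot tell fewer cells of a type from less RNA per cell.

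Most of these exons were nearly always in or nearly always out. Of the 434 microexons, 155 had a mean inclusion over 90% and 203 under 10%, which left 76 (17.5%) in between, against 11.9% of all 25322 exons. Median inclusion was 15.6%, against 97.2% for all exons and 86.2% for the 2018 exons of 28 to 54 nt. On either side of the length limit, median inclusion was 64.6% for the 51 exons of 27 nt and 68.7% for the 27 exons of 28 nt. Medians also moved widely between neighboring lengths (5.00% at 24 nt and 85.9% at 25 nt), so these values cannot show whether there is a step.

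The annotation sorted them into kinds that behaved differently. GENCODE M21 holds 201 of the 434, of which 176 lie in coding sequence, 10 in a 5′ UTR, and 8 in noncoding transcripts. In 107 annotated microexons neither edge belongs to a longer exon, so that their reads can come from no annotated longer form. Of these 107, 87 (81.3%) had a length that is a multiple of 3, and 81 of the 100 in coding sequence did. Over all coding microexons the share was 71.0% (125 of 176), against 44.6% of all joined coding exons, which were not chosen by length. Another 202 microexons, 76 annotated and 126 not, share an edge with a longer annotated exon, and a junction read at that edge fits both. Their high inclusion (medians of 95.0% and 95.9%) therefore includes reads of the longer exon. Inside a longer annotated exon, with no edge in common, lay 18 annotated and 24 unannotated microexons, with medians of 13.8% and 0.725%. The other 83 were not annotated and neither shared an edge with nor lay inside a longer annotated exon. They are called outside annotated exons below, although partial overlap with an annotated exon was not checked. All 83 were under 10%, with a median of 0.232%.

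**Figure D1:**
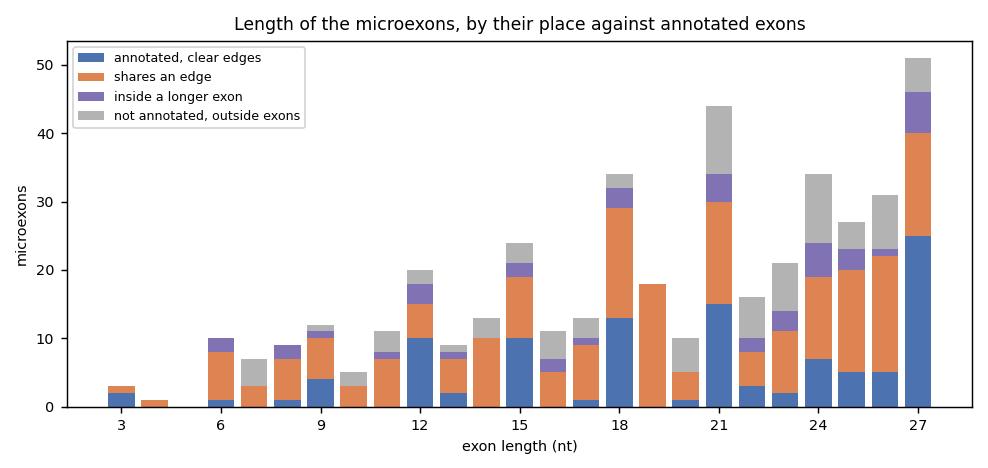
Number of microexons at each exon length in nt (x axis), stacked by their place against exons annotated in GENCODE M21. Lengths that are multiples of 3 stand out among the annotated exons with clear edges (blue), where 87 of 107 are multiples of 3, and exons that share an edge with a longer exon (orange) occur at all lengths from 6 nt up.

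The introns beside microexons were somewhat shorter than those beside other exons, with a median of 1071 nt upstream and 1094.5 nt downstream against 1567 and 1522.5 nt over all exons. Exons of 28 to 54 nt lay between, at 1288.5 and 1273.5 nt. Median GC content was 48.1% in the 201 annotated microexons, 48.1% in annotated exons of 28 to 54 nt, and 50% in all annotated joined exons. These are descriptions of the joined events and were not tested.

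Liver made substantial use of several microexons in every group. Among the 10 with the most reads on both forms, the 18-nt exon of Anxa6, an annexin that binds membranes with calcium, ran from 53.6% to 67.0% over the 12 libraries. The 6-nt exon of Ap2m1, the medium chain of the clathrin adaptor AP-2, ran from 75.6% to 87.4%. In Psap, which encodes the precursor of the saposins, the 9-nt exon was included in 3.72% to 9.69%. A 27-nt exon of the C-type lectin gene Cd302 was at 96.7% to 98.2% on at least 4991 counts per library. Inclusion of the 25-nt exon of Cd47, a receptor that restrains phagocytosis, was 23.7% to 30.7%. For Mrpl24 (26 nt) the range was 52.3% to 75.6%, for Isca2 (23 nt) 19.8% to 38.6%, and for C4bp (17 nt, 5′ UTR) 2.09% to 4.94%. Mup17 (19 nt, 18.9% to 55.6%) belongs to a family of near-identical major urinary protein genes, so its counts are uncertain. The exons of Ap2m1, Cd47, Mrpl24, Isca2, and Mup17 share an edge with a longer exon, so their inclusion includes reads of it. None of these 9 passed the limma test in any comparison. The quasi-binomial model gave an adjusted p under 0.05 for Cd302 in fasted liver (0.0485) and for Mrpl24 by genotype in both feeding states (0.0208 and 0.0188), where Mrpl24 was included more in Lpin1-/- liver without overlap. The 10th was Gfra1, described with the refed livers.

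In fasted liver, loss of lipin 1 altered 54 of the 465 microexon events, in 52 exons of 51 genes (limma on the log2 ratio of inclusion to skipping, adjusted p under 0.05 over all 28447 events). This is 11.6%, and 16.4% of all events were altered. Inclusion was higher in Lpin1-/- liver for 24 and lower for 30, while 5.11% of all events were higher and 11.3% lower. That balance depended on the model, since the quasi-binomial model of the counts called 18 microexon events higher and 16 lower, and 1126 and 1156 of all events. Limited to events whose rarer form averaged 5 counts or more, 46 of 169 microexon events were altered (21 higher and 25 lower), against 31.7% of all such events. That mean was taken over all 12 libraries, so an exon that changed in a single group can pass through that group. Scaf11 passed at 5.92, with skipping counts of 19, 23, and 27 in fasted Lpin1-/- and 1, 0, and 4 in fasted Lpin1+/+ liver. The higher shares under this limit are therefore no separate check of the calls. Leaving out the third-listed fasted Lpin1+/+ library lowered the count from 54 to 32. The groups did not overlap in 115 (24.7%) of the microexon events and 25.9% of all events, and the mean differed by at least 10 percentage points in 62 (13.3%) and 11.1%.

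By kind of exon, 12 of the 113 events of annotated microexons with clear edges were altered (10.6%, and 14.5% of all events of the kind), 8 with more inclusion in fasted Lpin1-/- liver and 4 with less. Events that share an edge with a longer exon were altered in 27 of 218 cases (12.4%, and 17.1% of all such events), 4 with more and 23 with less inclusion. Inside a longer exon, 4 of 49 were altered (8.16%, and 20.2% of all such events), 3 with more inclusion. Of the 85 events outside annotated exons, 11 were altered (12.9%, and 17.9% of all such events), 9 with more inclusion. With the rarer form at 5 counts or more, these counts were 11 of 40, 25 of 89, 5 of 25, and 5 of 15 (30.1%, 33.2%, 33.7%, and 31.2% of all such events). The directions were not compared by a test. By the level in refed Lpin1+/+ liver, which was no part of this comparison, 21 of the 22 altered events under 10% gained and 22 of the 23 altered events over 90% lost inclusion, and an event near either limit has little room to move the other way. The same split over all events was not counted, so it cannot be read as a trait of microexons.

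In fasted liver, Cpeb2 gained inclusion in every knockout library. CPEB2 binds cytoplasmic polyadenylation elements and controls translation of the mRNAs that carry them. Its 24-nt exon was included in 22.9%, 30.7%, and 33.7% of transcripts in the fasted Lpin1+/+ libraries and in 86.3%, 92.7%, and 80.7% in the fasted Lpin1-/- libraries. The groups lay far apart, at 29.1% ± 5.56 and 86.6% ± 6.01 (mean ± SD, n = 3). The log2 ratio of inclusion to skipping rose by 3.91 ± 0.54 (SE, adjusted p = 0.000345), and the call held with each library left out. Cpeb2 RPKM was 2.91 ± 2.46 in fasted Lpin1+/+ and 2.30 ± 1.15 in fasted Lpin1-/- liver (adjusted p = 0.847).

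Suco, which encodes a SUN domain protein of the endoplasmic reticulum, went from almost no inclusion to mostly inclusion. Its 21-nt exon was at 2.02%, 13.9%, and 5.18% in fasted Lpin1+/+ and at 82.9%, 63.7%, and 50.1% in fasted Lpin1-/- liver. All 3 knockout libraries were above all 3 controls, with a difference of 58.6 percentage points (log2 change 4.82 ± 0.84, adjusted p = 0.00143). Suco mRNA also rose, from 2.79 ± 1.09 to 11.4 ± 3.32 RPKM (adjusted p = 0.00353).

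Plekha5 encodes a pleckstrin homology domain protein. Inclusion of its 18-nt exon was 12.8%, 2.49%, and 4.21% in fasted Lpin1+/+ and 34.5%, 44.2%, and 30.9% in fasted Lpin1-/- liver, without overlap. The gain was 30.0 percentage points (log2 change 3.10 ± 0.65, adjusted p = 0.00449), on as few as 15 counts in a library. Plekha5 and the coding, clear-edged, or unannotated microexons of fasted liver described next, other than Scaf11, Rbp4, Fbxo22, Med21, Med7, Taf15, Mia2, Dnpep, and the 13-nt form of Taf6l, were picked after their values were seen, so as to show all altered exons of their kind.

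Other gains were smaller in percentage points and came from exons that Lpin1+/+ liver nearly always skipped. In Myo6, the actin motor that moves toward minus ends, the 27-nt exon went from 1.73%, 4.20%, and 0.733% to 5.09%, 25.3%, and 19.0% (adjusted p = 0.0115). Mef2a encodes a MADS-box transcription factor of muscle and neurons, and its 24-nt exon, known as the beta exon, went from 3.71%, 0%, and 1.58% to 23.1%, 7.59%, and 11% (adjusted p = 0.00978). The 6-nt exon of Clip1, a protein of growing microtubule ends, went from 0%, 0%, and 1.16% to 17.7%, 8.57%, and 5.50% (adjusted p = 0.00485). In each of these 3 the lowest knockout library was above the highest control library. Without the third-listed fasted Lpin1+/+ library the adjusted p of Myo6 was 0.0587, and with each library left out Mef2a and Clip1 kept their calls. In refed liver the knockout libraries of these 3 were also above all controls, without passing the test. Mean inclusion in refed Lpin1-/- and Lpin1+/+ liver was 14.4% and 2.97% for Myo6, 4.33% and 0% for Mef2a, and 3.97% and 0.775% for Clip1.

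The 9-nt exon of Cyld, a deubiquitinase that restrains NF-kappaB signaling, was read in none of the fasted Lpin1+/+ libraries and at 12.8%, 5.03%, and 7.65% in the fasted Lpin1-/- libraries (adjusted p = 0.0255). Dctn1, the large subunit of dynactin, likewise had a 15-nt exon at 0% in all 3 controls and at 12.5%, 5.35%, and 3.62% in the knockouts (adjusted p = 0.0203), although this exon lies inside a longer annotated exon. In Tmem184b the 21-nt exon reached 3.09%, 1.57%, and 0% on 1 count each in the first pair of libraries (adjusted p = 0.0363). Cyld lost the call without the first-listed fasted Lpin1+/+ library (0.11), and Dctn1 and Tmem184b without the first-listed fasted Lpin1-/- library (0.0895 and 0.145). The rarer form of Mef2a, Cyld, Dctn1, and Tmem184b had a mean under 5 counts, and a log2 change against a group at 0 depends on the 0.5 added to each count. For Mef2a, Cyld, Clip1, and Dctn1 the quasi-binomial model of the counts gave adjusted p of 0.0625, 0.268, 0.164, and 0.317, whereas it kept Cpeb2 (0.000237), Suco (0.0111), Myo6 (0.0243), and Plekha5 (0.0361). Refed Lpin1+/+ liver did include the exons of Cyld (5.68%, 0%, and 2.27%) and Dctn1 (5.31%, 2.9%, and 0%). The refed Lpin1-/- libraries were at 1.81%, 0%, and 2.16% for Cyld and at 0% in all 3 for Dctn1.

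Losses among the clear-edged microexons included Mia2, which encodes a cargo receptor at endoplasmic reticulum exit sites. Its 27-nt exon was constitutive in fasted Lpin1+/+ liver (99.1%, 99.1%, and 99.2%) and fell to 80.1%, 93.3%, and 91.4% in fasted Lpin1-/- liver (log2 change -3.67 ± 0.89, adjusted p = 0.011, and 0.0537 without the first-listed fasted Lpin1-/- library). The 15-nt exon of Arhgap12, a GTPase activating protein, went from 29.6%, 36.9%, and 29.7% to 23.5%, 0%, and 0% (adjusted p = 0.0178). Both separated the groups, although Arhgap12 rested on 15 to 22 counts in the knockout libraries and missed the threshold under the quasi-binomial model (0.22) and without the second-listed fasted Lpin1-/- library (0.0811). Smaller losses were seen in Gpld1, the phospholipase D that cleaves GPI anchors (27 nt, from 99.5%, 100%, and 99.7% to 96.7%, 98.2%, and 98.7%, adjusted p = 0.0296, and 0.113 without the second-listed fasted Lpin1+/+ library), and in the kinesin gene Kifc3 (27 nt, from 100% in all 3 to 96.7%, 91.3%, and 93.8%, adjusted p = 0.00561). The rarer form averaged 4.58 counts for Gpld1 and 1.17 for Kifc3. For Kifc3 the fall was 2, 6, and 3 skipping counts against none, so its log2 change depends on the 0.5 added to each count.

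**Figure D2:**
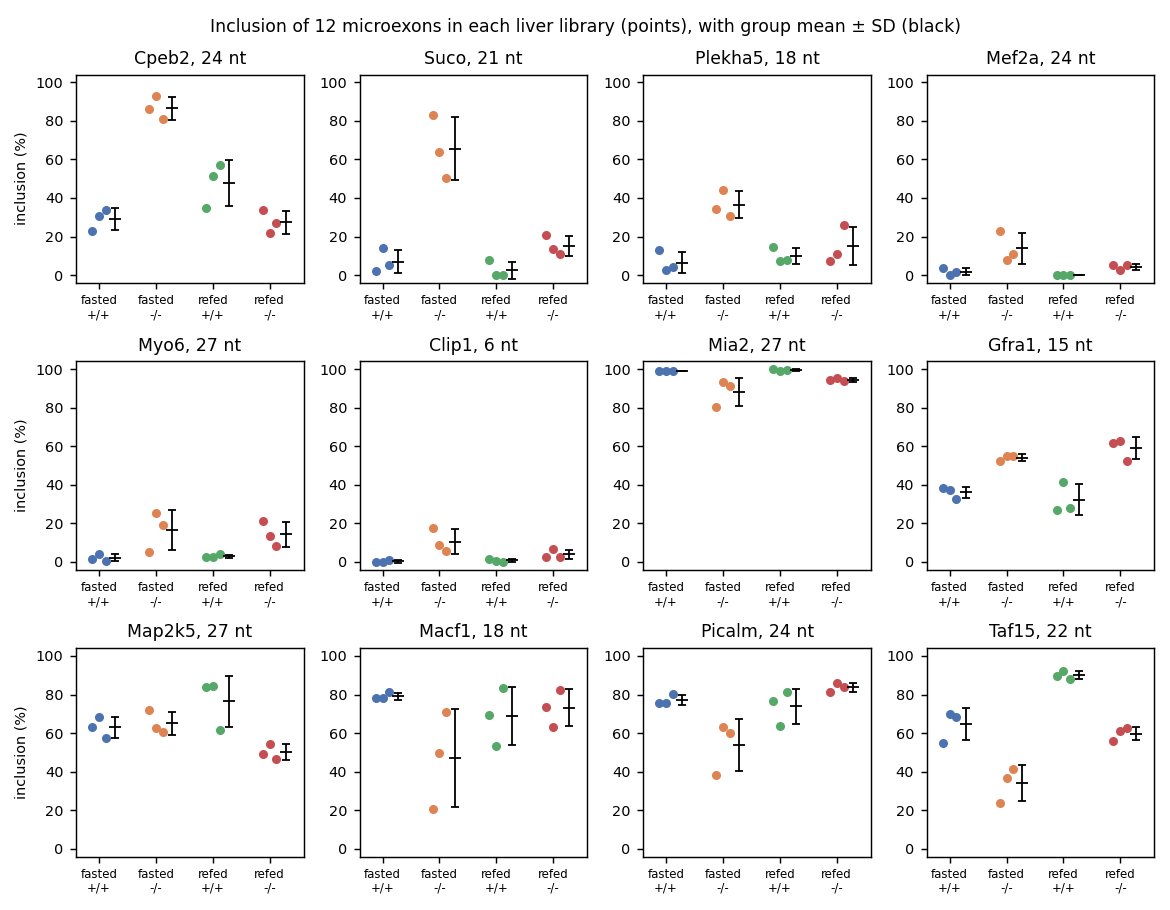
Inclusion in percent (y axis) of 12 microexons in each of the 12 liver libraries, with 3 points per group and the group mean ± SD in black. Cpeb2 and Suco lie highest in the 3 fasted Lpin1-/- libraries, and Taf15 and Mia2 are lower in Lpin1-/- than in Lpin1+/+ liver in both feeding states.

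The largest falls in percentage points were in exons that share an edge with a longer annotated exon, so the value mixes the microexon with the longer form. Scaf11 encodes an SR-related splicing factor, and inclusion of the 21-nt form was 97.9%, 100%, and 90.5% in fasted Lpin1+/+ against 26.6%, 53.0%, and 45.9% in fasted Lpin1-/- liver (log2 change -4.98 ± 0.91, adjusted p = 0.00201). For Rbp4, the retinol carrier secreted by hepatocytes, the 13-nt form went from 100%, 91.8%, and 97.8% to 57.8%, 64.6%, and 65.8% (adjusted p = 0.00131). For the F-box protein gene Fbxo22 the mean fell by 31.9 percentage points (18 nt, adjusted p = 0.00369). All 3 were lower in every knockout library than in any control library.

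Further falls in exons that share an edge were those of Taf6l, Med21, Med7, and Taf15. Taf6l, a component of histone acetyltransferase complexes, had its 13-nt form at 57.7%, 52.5%, and 58.3% in fasted Lpin1+/+ and at 7.6%, 23.5%, and 6.54% in fasted Lpin1-/- liver (adjusted p = 0.00599). The Mediator subunit gene Med21 (24 nt, in a noncoding transcript) went from 86.4%, 80.4%, and 85.2% to 36.5%, 47.6%, and 44.6% (adjusted p = 0.00713). Med7, another Mediator subunit (19 nt, 5′ UTR), went from 43.9%, 89.6%, and 65.5% to 14.0%, 30.3%, and 32.2% (adjusted p = 0.0317). Its control libraries were spread widely, and without the second-listed one the adjusted p was 0.135. Taf15, an RNA-binding protein of the FET family, fell from 64.5% ± 8.25 to 34% ± 9.23 (22 nt, adjusted p = 0.0205, and 0.0769 without the first-listed fasted Lpin1-/- library).

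The other altered coding microexons lay inside or beside a longer exon. Mars, the methionyl-tRNA synthetase, included its 24-nt exon at 8.86%, 11.2%, and 13.2% in fasted Lpin1+/+ and at 21.8%, 33.1%, and 28.2% in fasted Lpin1-/- liver (adjusted p = 0.0305, and 0.103 without the first-listed fasted Lpin1+/+ library). Blzf1, a Golgi protein, went from 3.02%, 7.32%, and 0% to 48.9%, 17.9%, and 22.7% (21 nt, adjusted p = 0.00336). Both had every knockout library above every control library. Sel1l, an adaptor of the degradation of misfolded endoplasmic reticulum proteins, went from 99%, 96.5%, and 96.6% to 54.3%, 94.5%, and 69.7% (18 nt, adjusted p = 0.0302, and 0.133 without the first-listed fasted Lpin1-/- library). Serhl (20 nt, a difference of -9.52 percentage points, adjusted p = 0.00347), Git1 (27 nt, -19.3, adjusted p = 0.0415), and Gabarap (25 nt, -0.473, adjusted p = 0.0311) also fell. Ap1ar rose (26 nt, 6.04, adjusted p = 0.0312). Git1, Gabarap, and Ap1ar lost the call without the second-listed fasted Lpin1+/+ (0.162), first-listed fasted Lpin1-/- (0.123), and first-listed fasted Lpin1+/+ library (0.101), and their rarer form averaged under 5 counts.

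Gains outside annotated exons were of low level. Gpt2, mitochondrial alanine aminotransferase, had no reads of its 24-nt exon among at least 1057 counts in each fasted Lpin1+/+ library and 0.891%, 0.806%, and 0.411% in the fasted Lpin1-/- libraries (adjusted p = 0.00473). For Scp2, a lipid carrier and thiolase of peroxisomes, the 21-nt exon went from 0.0205%, 0.0802%, and 0.00557% to 0.335%, 0.292%, and 0.161% (adjusted p = 0.0161, and 0.0786 without the third-listed fasted Lpin1+/+ library). In Dnpep, aspartyl aminopeptidase, the 18-nt exon went from 0.222%, 0%, and 0.452% to 2.69%, 3.42%, and 2.08% (adjusted p = 0.00425). Each knockout library exceeded each control library in these 3 genes. Dynlrb1, Pef1, Snx21, Agpat3, Bnip3l, and Ephx2 gained in the same direction (adjusted p of 0.0163, 0.0278, 0.0209, 0.0103, 0.0099, and 0.0372), with mean inclusion of 0.0887% to 5.48% in fasted Lpin1-/- liver. Of these 6, only Bnip3l kept its call with each library left out, and the highest adjusted p of the others was 0.0542 to 0.133. A 26-nt exon of Taf6l, which contains the 13-nt form, was lower (adjusted p = 0.0265, and 0.12 without the first-listed fasted Lpin1+/+ library). The quasi-binomial model kept Scp2 (0.014) and Dnpep (0.0196) and not Gpt2 (0.203) or those 6 genes (0.0806 to 0.29).

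**Figure D3:**
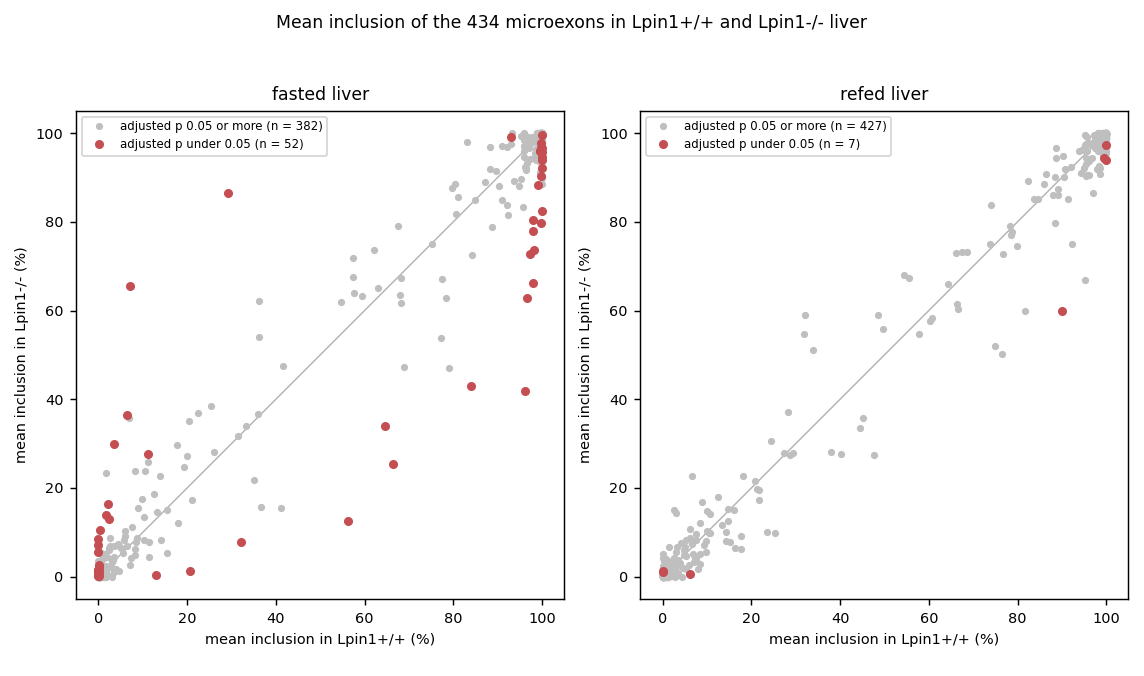
Mean inclusion in percent of each of the 434 microexons in Lpin1+/+ (x axis) and Lpin1-/- liver (y axis), for fasted mice on the left and refed mice on the right, with altered exons in red and the line of equal inclusion in gray. In fasted liver 52 exons were altered and Cpeb2 and Suco lie far above the line, and in refed liver 7 were altered and points lie nearer to the line.

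After refeeding, the genotypes differed in 7 of the 465 events (1.51%, against 1.68% of all events), 2 with more and 5 with less inclusion in Lpin1-/- liver, where 0.404% and 1.27% of all events went these ways. Where the rarer form averaged 5 counts or more, 16 of 169 were altered, and 8.49% of all such events. The groups did not overlap in 72 (15.5%, and 16.9% of all events), and 25 differed by at least 10 percentage points (5.38%, and 4.26% of all). Leaving out 1 of the 12 libraries gave between 1 and 9, and each library of refed liver lowered the count when left out, to 1 at the fewest (first-listed refed Lpin1-/-). Of the 7, 4 were also altered in fasted liver, in the same direction: Taf15, Mia2, Tecr, and Dnpep. They are 57.1% of the refed and 7.41% of the fasted list, and the same overlap over all events was not counted. These comparisons have no library in common, but 1 fit gave both the same variance estimate for each event.

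In percentage points Taf15 had the largest change of the 7 (-30.1), with its 22-nt form at 89.8%, 92.1%, and 87.9% in refed Lpin1+/+ and at 55.8%, 61.1%, and 62.5% in refed Lpin1-/- liver (log2 change -2.50 ± 0.50, adjusted p = 0.0191). The libraries of a genotype lay within a few percentage points of each other and the genotypes did not overlap. Without the first-listed refed Lpin1-/- library the adjusted p was 0.084. For Mia2 the refed values were 100%, 99.0%, and 99.6% against 94.1%, 95.6%, and 93.7% (log2 change -4.20 ± 0.89, adjusted p = 0.0268, and 0.0983 without that same library). Tecr, the last enzyme of very long chain fatty acid elongation, went from 100% in all 3 libraries to 98.4%, 96.1%, and 97.7% (18 nt, 5′ UTR, adjusted p = 0.0187, and 0.073 without the third-listed refed Lpin1+/+ library). The exons of Taf15 and Tecr share an edge with a longer annotated exon, so their inclusion includes reads of it. Dnpep, at 0% in all 3 refed Lpin1+/+ libraries, was at 1.88%, 0.757%, and 0.892% (adjusted p = 0.00667).

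The other 3 rested on few counts of the rarer form. Denr, a factor of translation reinitiation, went from 100% in all 3 to 92.1%, 94.4%, and 95.2% (20 nt, adjusted p = 0.0303, and 0.113 without the first-listed refed Lpin1-/- library). Khk, the fructose kinase, and Hmgcs1, an enzyme of sterol synthesis, had 16-nt exons outside the annotation whose refed groups overlapped (adjusted p of 0.0489 and 0.0233, and 0.186 and 0.107 without the first-listed refed Lpin1+/+ and the first-listed refed Lpin1-/- library). Their inclusion was 13.9%, 0%, and 4.82% against 0%, 0%, and 1.95% for Khk. For Hmgcs1 it was 0% in all 3 against 3.08%, 0%, and 0%, that is, 2 reads in 1 library. Both calls were lost under the quasi-binomial model (0.225 and 0.384), as were those of Denr (0.382), Tecr (0.456), Dnpep (0.314), and Mia2 (0.0729), while Taf15 kept its call (0.0121).

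Among well-covered microexons whose refed groups did not overlap, Gfra1 encodes a GDNF receptor subunit and its 15-nt exon distinguishes the long and short receptor forms. It was at 27%, 41.4%, and 28% in refed Lpin1+/+ and at 61.9%, 62.9%, and 52.3% in refed Lpin1-/- liver. In fasted liver it was at 38.3%, 37.1%, and 32.9% against 52.1%, 55.1%, and 55.2%. All 6 Lpin1-/- libraries were thus above all 6 Lpin1+/+ libraries, on 107 or more counts each. The adjusted p was 0.132 in fasted and 0.0954 in refed liver over all events, and 0.0419 and 0.0184 when events with fewer than 5 counts of the rarer form were left out.

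Map2k5 encodes the kinase upstream of ERK5. Its 27-nt exon was at 83.7%, 84.6%, and 61.4% in refed Lpin1+/+ and at 49.1%, 54.6%, and 46.8% in refed Lpin1-/- liver, a difference of 26.4 percentage points (adjusted p = 0.115, and 0.038 with the rarer form at 5 or more). In fasted liver its groups overlapped, at 63.1% ± 5.44 and 65.1% ± 5.86. Rbp4 stayed lower in refed Lpin1-/- liver, at 77.9%, 50.3%, and 72.7% against 94.6%, 94.7%, and 96.3% (adjusted p = 0.0547, and 0.0257 with the rarer form at 5 or more).

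Refeeding altered no microexon in Lpin1+/+ liver. The count was 0 of 465 and 0 of all 28447 events by limma, with 19 microexon events at an unadjusted p under 0.05, and 0 of 169 where the rarer form averaged 5 counts or more. The quasi-binomial model called 0 of the 465 (24 at an unadjusted p under 0.05) and 11 of all 28447 events, and precision weights called 0 and 7. The groups did not overlap in 32 events (6.88%), against 7.45% of all events, and 17 differed by at least 10 percentage points (2.61% of all events did). The well-covered ones with the largest differences were Taf15 (64.5% ± 8.25 fasted and 89.9% ± 2.09 refed, adjusted p = 0.444), Sec22a, a vesicle trafficking protein (17 nt, 77.4% ± 8.39 and 57.9% ± 7.98, adjusted p = 0.992), Cpeb2 (29.1% ± 5.56 and 47.8% ± 11.8, adjusted p = 0.987), and Gm43809 (23 nt, 80.4% ± 0.965 and 66.2% ± 5.59, adjusted p = 0.979). Those of Taf15 and Sec22a share an edge with a longer annotated exon, and that of Gm43809 lies inside one. A miss of the threshold with 3 mice per group does not show that these exons were unaffected by feeding.

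In Lpin1-/- liver, refeeding altered 24 of the 465 events, 16 with more and 8 with less inclusion after the meal. This is 5.16%, against 7.8% of all events (5.31% higher and 2.5% lower). With the rarer form at 5 counts or more, 22 of 169 were altered, against 15.4% of all such events. The excess of gains was lost under other models, with 11 higher and 12 lower by the quasi-binomial model and 21 and 20 with precision weights. The groups did not overlap in 86 (18.5%, and 19.7% of all events), and 46 differed by at least 10 percentage points (9.89%, and 9.78% of all). Leaving out the first- or second-listed fasted Lpin1-/- library gave 8 and 15, and leaving out the second- or third-listed refed one gave 7 (3 higher and 4 lower) and 8 (3 higher and 5 lower). This comparison shares the fasted Lpin1-/- libraries with the fasted genotype comparison, so the values below are set beside those above and are not a separate observation.

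Suco, at 82.9%, 63.7%, and 50.1% in fasted Lpin1-/- liver, was at 20.9%, 13.3%, and 10.8% in refed Lpin1-/- liver (log2 change -3.50 ± 0.84, adjusted p = 0.0198, and 0.0902 without the first-listed fasted library). Refed Lpin1+/+ liver was at 7.57%, 0%, and 0%. Scaf11 went the other way, from 41.8% ± 13.7 to 96.8% ± 4.01 (adjusted p = 0.00301), beside 97.4% ± 4.54 in refed Lpin1+/+. Med21 rose from 42.9% ± 5.75 to 75.1% ± 17.4 (adjusted p = 0.0452, and 0.184 without the second-listed refed library), a call that held in 1 of the 12 fits with a library left out. Med7 rose from 25.5% ± 10 to 75% ± 16.5 (adjusted p = 0.0217, and 0.0947 without the third-listed), and the 13-nt form of Taf6l from 12.5% ± 9.50 to 55.8% ± 17.6 (adjusted p = 0.0129, and 0.063 without the second-listed). For Taf15 the change from 34% to 59.8% ± 3.54 missed the threshold (adjusted p = 0.0719).

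Picalm, a clathrin assembly protein, had a 24-nt coding exon with many counts on both forms, which lies inside a longer annotated exon. It was at 38.2%, 63.1%, and 60.1% in fasted and at 81.3%, 86.0%, and 84.1% in refed Lpin1-/- liver (adjusted p = 0.0245, and 0.0971 without the first-listed fasted library). The fasted Lpin1-/- libraries were also below the fasted Lpin1+/+ libraries (75.8%, 75.5%, and 80.1%), where the test gave an adjusted p of 0.066. Noc2l, an inhibitor of histone acetyltransferases, went from 15.3%, 68.7%, and 58.0% to 81.6%, 92.1%, and 93.7% (14 nt, adjusted p = 0.0222), with 1 fasted library far below the others and an adjusted p of 0.0841 without it. The Noc2l exon shares an edge with a longer annotated exon, so its inclusion includes reads of that exon.

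Of the microexons, only Cpeb2 passed the test of a feeding response that differs between the genotypes. In refed liver its exon was at 34.6%, 51.6%, and 57.1% in Lpin1+/+ and at 33.5%, 21.7%, and 27% in Lpin1-/- mice. Refeeding thus moved the mean from 29.1% to 47.8% in Lpin1+/+ liver (not past the test) and from 86.6% to 27.4% in Lpin1-/- liver (log2 change -4.02 ± 0.54, adjusted p = 0.000933). The interaction was -5.14 ± 0.77 on the log2 scale (adjusted p = 0.0174). Without the second-listed fasted Lpin1-/- library, which had 69 inclusion and 4 skipping counts, the adjusted p was 0.0527. The share past this test was 0.215% of microexon events (1 of 465) and 0.777% of all events (0.471% positive and 0.306% negative), and with the rarer form at 5 counts or more it was 1 of 169 and 2.67% of all such events.

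**Figure D4:**
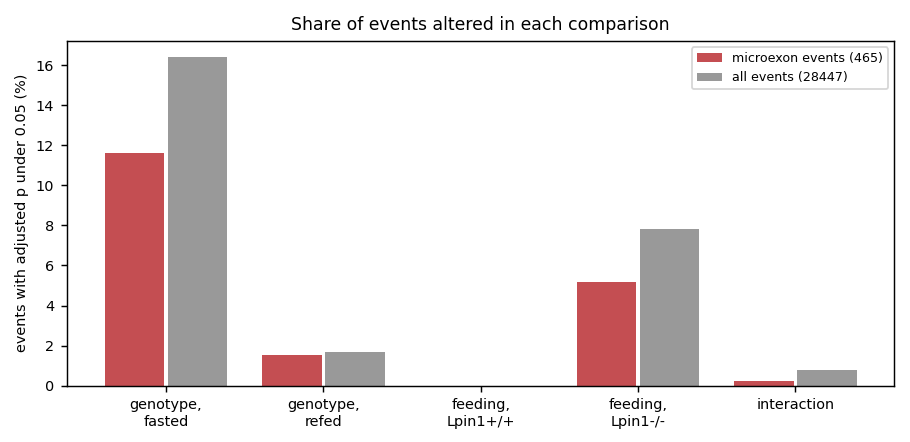
Share of SE events with an adjusted p under 0.05 in percent (y axis) in each comparison, for the 465 microexon events in red and all 28447 events in gray. Fasted liver of the genotypes differed most (11.6% and 16.4%), no event passed for feeding in Lpin1+/+ liver, and the microexon bars are at or below the gray bars throughout.

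Genes known for a microexon in neurons or muscle were looked up as a list of 38, of which 15 had a microexon here, 19 microexons in all. The rarer form reached a mean of 5 counts in 10. Altered were 2 in fasted liver by genotype (Mef2a and Dctn1, both with more inclusion in Lpin1-/-) and 3 by refeeding in Lpin1-/- liver (Dctn1, Ppfia1, and Picalm), and none in the other comparisons. Of all events 16.4% and 7.8% were altered in the former and the latter comparison. With refeeding Picalm rose, while Dctn1 and Ppfia1 fell on few counts. Inclusion counts were 4, 8, and 5 for Dctn1 and 1, 2, and 2 for Ppfia1 in fasted Lpin1-/- liver, and none in refed Lpin1-/- liver. The rarer form averaged 2.25 and 0.833 counts for these genes. With the rarer form at 5 counts or more, Macf1 and Picalm passed in fasted liver and Picalm for refeeding, of 10 tested. Clasp2, a microtubule plus-end protein, was at a mean of 1.67% in fasted Lpin1+/+ and 23.4% in fasted Lpin1-/- liver on few counts, and did not pass the test.

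Several of the list were used in liver in every group. The 12-nt exon of Dnm2, the dynamin of endocytosis, was at 52.3% to 75.1% over the 12 libraries. Ptk2, focal adhesion kinase, included its 9-nt exon at 36.7% to 79.3% and its 21-nt exon (matched to a noncoding transcript) at 5.49% to 27.2%. The 21-nt exon was at 26.0%, 27.2%, and 23.0% in refed Lpin1+/+ and at 11.6%, 7.02%, and 11% in refed Lpin1-/- liver, without overlap (adjusted p = 0.17). Agrn, which organizes neuromuscular synapses, had the 12-nt exon of its heparin-binding site at 11.2% to 40.5%. Mon2 (18 nt), a protein of the trans-Golgi, was at 31.5% to 40.2% in fasted Lpin1-/- and 19.4% to 24.4% in fasted Lpin1+/+ liver, without overlap (adjusted p = 0.228).

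The rest of the list showed less. Abi1, a WAVE complex subunit (15 nt, 3.59% to 19%), Sptan1, alpha spectrin (15 nt, 5.27% to 18%), and Ptprf, a receptor phosphatase (27 nt, 0% to 8.59%) were mostly skipped in all groups. Macf1, a linker of actin and microtubules, had its 18-nt exon at 78.0%, 78.2%, and 81.1% in fasted Lpin1+/+ and at 20.4%, 49.9%, and 70.7% in fasted Lpin1-/- liver. The knockout libraries differed widely from each other and the test was missed (adjusted p = 0.0665, and 0.047 where the rarer form averaged 5 counts or more).

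The shortest microexons were 3 nt long. In Itih3, a hyaluronan-binding protein of plasma, inclusion was 98.6% to 99.5% on at least 4535 counts per library, and the exon shares an edge with a longer one. All 6 Lpin1-/- libraries (98.6% to 98.8%) were below all 6 Lpin1+/+ libraries (99.3% to 99.5%), with an adjusted p of 0.17 in fasted and 0.329 in refed liver by limma and 0.00078 and 0.00475 by the quasi-binomial model. Spp1, osteopontin, included its exon in 0.196% to 1.81%, and Map4k5, a kinase of JNK signaling, in 79.3% to 100% on 10 or more counts. An exon of 3 nt can be aligned in more than 1 way, which was not tested.

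Regulators of microexons were followed in the RPKM table as a list of 32 genes, of which 24 passed a mean of 0.5 RPKM. In fasted liver 4 differed between genotypes, against 18.8% of the 11507 genes tested. Srrm4, the activator of neuronal microexons, was at 0.372, 0.123, and 0.0836 RPKM in fasted Lpin1+/+ and at 0.918, 1.24, and 2.71 in fasted Lpin1-/- liver. It rose by 1.09 ± 0.26 on the log2(RPKM + 1) scale (adjusted p = 0.0153, and 0.0653 without fasted Lpin1+/+ replicate 3), and by 2.54 with 0.1 added in place of 1. Its mean reached 0.5 RPKM only through the fasted Lpin1-/- libraries, and with no filter the adjusted p was 0.0264. The sum of the 6 neuron markers was 2.58 to 3.68 RPKM in these Lpin1-/- livers and 3.85 to 4.97 in fasted Lpin1+/+ liver. Of the 6, Syt1 had the lower mean in Lpin1-/- (1.20 and 3.48 RPKM), and the other 5 had higher means, with Snap25 at 1.05 and 0.578, Tubb3 at 0.292 and 0.128, Rbfox3 at 0.229 and 0.11, Nefl at 0.187 and 0.0788, and Stmn2 at 0.181 and 0.106. Their part in the Srrm4 values was not tested. The paralog Srrm3 was under the filter, at a mean of 0.0158 RPKM. Any part of Srrm4 in the inclusion values above was not tested.

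The other 3 were lower in fasted Lpin1-/- liver. Khdrbs3, a STAR family RNA-binding protein, went from 16.1 ± 2.53 to 5.61 ± 1.10 RPKM (log2 change -1.38 ± 0.23, adjusted p = 0.00244). Esrp2, the epithelial splicing regulator of hepatocytes, went from 21.2 ± 6.60 to 10.1 ± 2.09 RPKM (adjusted p = 0.0276, and 0.0955 without fasted Lpin1-/- replicate 1), and Rbm4 from 11.1 ± 0.812 to 6.98 ± 0.801 (adjusted p = 0.0312, and 0.118 without fasted Lpin1+/+ replicate 3). In refed liver only Ptbp2, the PTB paralog that replaces PTBP1 in young neurons, differed, at 1.85 ± 0.587 in Lpin1+/+ and 4.60 ± 1.37 RPKM in Lpin1-/- liver (adjusted p = 0.0292, and 0.115 without refed Lpin1-/- replicate 1), where 6.67% of all genes differed. Rescaling each library by its median ratio moved the median log2 change of all genes in fasted liver from -0.143 to 0.0144, and then 5 regulators were higher and 2 lower, with Rbm4 no longer past the test (0.12).

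Refeeding raised 10 of the 24 regulators in Lpin1-/- liver and lowered none, against 20.7% of all genes altered. Mbnl1, a developmental splicing regulator, rose from 5.06 ± 1.02 to 21.1 ± 4.64 RPKM (adjusted p = 0.00458), Elavl1 from 6.61 ± 1.67 to 18.3 ± 3.70 (adjusted p = 0.00661), and U2af2, which recognizes the polypyrimidine tract, from 20.5 ± 0.791 to 41.1 ± 3.24 (adjusted p = 0.00209). Esrp2, Khdrbs1, Khdrbs3, Rbfox2, Rbm4, Rbm5, and Tia1 were the others, of which Esrp2 and Rbm4 kept their calls with each library left out. After rescaling, which moved the median of all genes from 0.25 to -0.0284, 7 were higher and none lower. In Lpin1+/+ liver no regulator passed limma's test for feeding (3 at an unadjusted p under 0.05, and 1.72% of all genes altered), and none had a feeding response that differed between genotypes (6 at an unadjusted p under 0.05, and 1.28% of all genes). The highest mean levels among the 32 were those of U2af1 (32.0 RPKM), U2af2 (29.7), Sf1 (29.4), Ptbp1 (26.6), and Esrp2 (22.2).

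**Figure D5:**
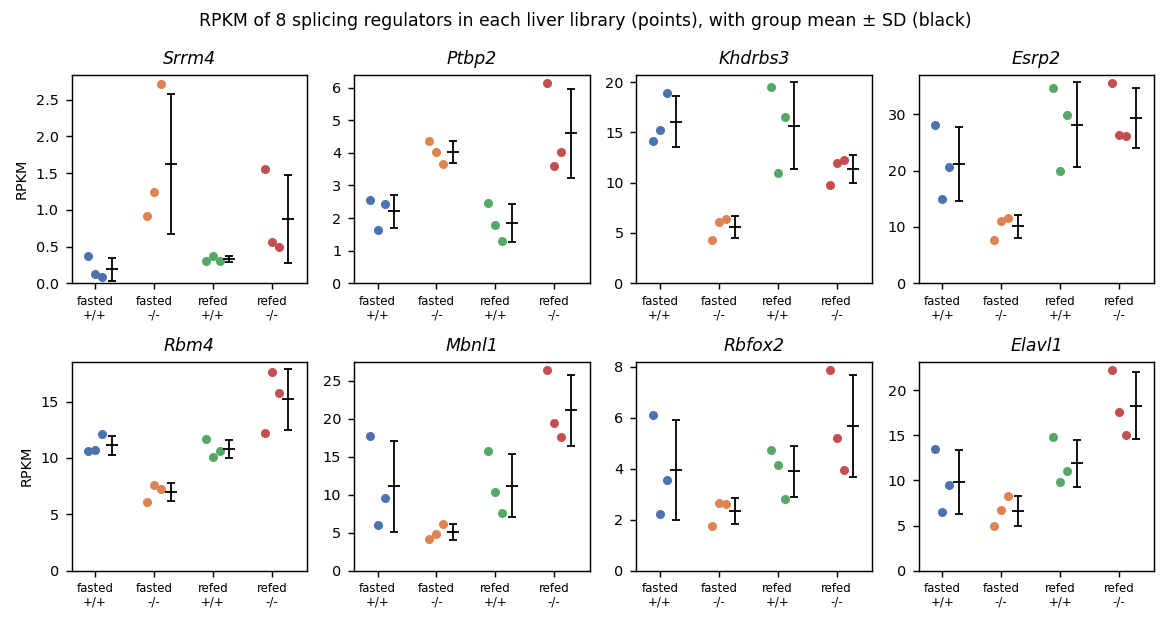
RPKM (y axis, from 0) of 8 splicing regulators in each of the 12 liver libraries, with 3 points per group and the group mean ± SD in black. Srrm4 is highest on average in fasted Lpin1-/- liver, where Khdrbs3, Esrp2, and Rbm4 are lowest, and Mbnl1 and Elavl1 are highest in refed Lpin1-/- liver.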

How the data were processed

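The authors aligned 69 bp paired-end reads of bulk liver RNA (6 lanes) with HISAT2 2.0.5 to GRCm38, counted genes with HTSeq 0.6.0, and deposited RPKM per gene. For splicing they ran rMATS (version not given in the sources used here) and deposited tables of other values, in which comma-separated inclusion and skipping counts list the 3 libraries of each group without names. The lists were given their genotype by the 1524 and 1719 events whose counts recur in a labelled table. DESeq2 1.20.0 is named in the submitters' processing notes. The authors' own p-values, FDR, and enrichment tables were not used.

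Inclusion was the inclusion count divided by exon length plus 68, over the sum of that and the skipping count divided by 68. The log2 ratio of both, with 0.5 added to each count, was fitted with limma 3.58.1 (R 4.3.3) over all 28447 events in 1 fit of the 4 groups that let the variance follow the mean, with Benjamini-Hochberg adjustment at 0.05. Log2(RPKM + 1) was fitted likewise for the 11507 genes that averaged 0.5 RPKM or more. The fit was tested on simulated data, where events with under 5 counts of the rarer form gave most false calls, so counts over the microexon events are also given without them. The limit uses the mean over all 12 libraries, so it favors exons that changed in a single group, for microexons and all events alike. Exons, coordinates, and sequences are those of GENCODE M21 (GRCm38), read with Python 3.11.15.

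The members and lists were chosen with earlier results of these data known. Named are, per comparison, the 8 altered microexons with the largest difference and the 4 non-overlapping, well-covered ones with the largest difference, the 10 with most counts of the rarer form, those of the host list, and the 3 shortest, which came to 42. Another 29, the other altered exons in coding sequence, with clear edges, or outside the annotation, were added after their values were seen. The planned count model in edgeR was not run because the count lists did not pass as a count column, and a quasi-binomial model was added after seeing the data. With 3 mice against 3, an exact permutation test cannot go below 0.1. The counts cover counting error of reads, not of molecules.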

Additional observations from a re-analysis of the deposited data

Results flagged for a closer look

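The 24-nt exon of Cpeb2 stood out because its response to feeding differed between the genotypes by a test of the interaction (-5.14 on the log2 scale, adjusted p = 0.0174 by limma over all events). Inclusion was 86.6% ± 6.01 in fasted and 27.4% ± 5.91 in refed Lpin1-/- liver, and 29.1% ± 5.56 and 47.8% ± 11.8 in fasted and refed Lpin1+/+ liver (mean ± SD, n = 3). The quasi-binomial model gave an adjusted p of 0.0074. No group has more than 3 libraries, so single libraries were not screened as outliers.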

How the results depend on the processing

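Limits first: 296 of the 465 events had a rarer form averaging under 5 counts, and 3 mice per group give wide intervals. The 61 calls of named microexons changed sign in 0 of 1268 alternative values, and no call of a named regulator changed sign. In fasted liver the 54 microexon events altered by genotype became 35 with at least 50 counts in every library, 28 with a difference of at least 10 percentage points as well, 34 under the quasi-binomial model, and 32 to 64 with 1 library left out. In refed liver the 7 became 11 with at least 50 counts, 16 with a rarer form of 5 or more, 11 with 1 added to each count, 1 with the 10-point difference, and 1 to 9 with 1 library left out. For refeeding in Lpin1-/- liver the 24 became 11 with at least 50 counts, 41 with precision weights, 14 with the 10-point difference, 11 with only the 6 libraries compared, and 7 to 27 with 1 library left out. The 1 interaction became 0 with at least 20 or 50 counts, which removed Cpeb2, 2 with 1 added, and 0 to 3 with 1 library left out. Refeeding in Lpin1+/+ liver gave 0 microexon events under every alternative. The cause was not tested for the others.

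Of the regulators, the 4 of fasted liver became 7 after rescaling by the median ratio and 1 to 6 with 1 library left out (1 without fasted Lpin1+/+ replicate 3, and 2 without fasted Lpin1-/- replicate 2). The 1 of refed liver became 0 with no filter on low values and 0 to 1 with 1 library left out. The 10 of refeeding in Lpin1-/- liver became 6 to 11 with 1 library left out (6 without refed Lpin1-/- replicate 2), and with no filter 8 were higher and 2 lower. The interaction count of 0 became 1 after rescaling and 0 to 1 with 1 library left out. The replicate numbers do not pair the RPKM samples (correlations of -0.474 to 0.743 between same-numbered samples), and with a replicate block the counts were 3, 1, 0, 8, and 0 in the order fasted genotype, refed genotype, refeeding in Lpin1+/+ and in Lpin1-/- liver, and interaction. No paired analysis was possible because the inclusion lists carry no replicate numbers. For single microexons 541 alternative values kept their side of the threshold, 94 lost a call, and 13 gained one. For single regulators 195 kept it and 45 lost a call. The quasi-binomial model and the fit without a variance trend were chosen after seeing the data, and the planned edgeR alternative was not run.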
